A study of Homo sapiens with 10 samples.

Results

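CRELD1, CRELD2, MANF, NUCB1, NUCB2, SDF4, CALU, RCN1 and RCN2 encode small calcium-binding or cysteine-rich proteins of the endoplasmic reticulum (ER), the Golgi apparatus and the early secretory pathway. They were found by their gene names, and all 9 were among the 32738 genes of the count table and the 12733 genes with enough counts to be tested. The family was chosen with the differences between tunicamycin-treated and control cells already known, so the values of the 9 genes are given as a description, without a test of their own. HepG2, a human hepatoma cell line, was grown for 17 h in medium with 2 µg/ml tunicamycin or, as control, in regular growth medium. No vehicle in the control medium is named in the sources used here. There were 5 replicate experiments on separate days, each giving 1 Control and 1 Tunicamycin library of 3′ ends of mRNA (QuantSeq), in which a transcript gives about 1 fragment whatever its length.

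Tunicamycin blocks N-linked glycosylation, so that glycoproteins misfold in the ER and the unfolded protein response is switched on. The ER lumen is the main calcium store of the cell, and many of its chaperones bind calcium with low affinity and high capacity. The CREC proteins (SDF4, also known as Cab45, the reticulocalbins RCN1 and RCN2, and calumenin) and the nucleobindins bind calcium through EF hands, while the CRELD proteins carry EGF-like repeats. MANF is a small secreted and ER-resident protein without EF hands that binds the chaperone BiP and protects cells under ER stress.

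The ER stress element, to which the transcription factors NF-Y and ATF6 bind, is written CCAAT, 9 bases, CCACG, and the second element is ATTGG, 1 base, CCACG. Both were searched on both strands of the RefSeq promoters (GRCh38.p14), which run from 250 bases before to 50 bases after each start. The 9 genes had 11 promoters in this table, since CRELD1 and NUCB2 had several starts. The first element was found in the promoter of CRELD2 and the second in that of NUCB1. In the table as a whole, 27 of 35116 promoters (0.0769%) held the first element and 19 (0.0541%) the second. Among the promoters of the luminal chaperones HSPA5 (BiP), HSP90B1 (GRP94), CALR (calreticulin), PDIA4 and P4HB, listed here for comparison, those of 3 genes held the first element. The stretches are shown 5′ to 3′ on the gene's strand, with the fixed letters of the element in capitals, so that its spacing can be compared between genes. Where the element lies on the opposite strand, the capitals read as its reverse complement.
CRELD2: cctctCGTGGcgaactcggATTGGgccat
NUCB1: gccagCGTGGaCCAATcagac
HSPA5: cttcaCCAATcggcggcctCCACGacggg
HSP90B1, far copy: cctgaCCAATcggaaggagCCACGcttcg
HSP90B1, near copy: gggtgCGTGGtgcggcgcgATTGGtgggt
CALR: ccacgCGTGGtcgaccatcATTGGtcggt

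The CRELD2 stretch lies at chr22:49918549-49918577 on the plus strand, with the element on the opposite strand from -80 to -62 relative to the start. The NUCB1 stretch lies at chr19:48900238-48900258 on the plus strand, with the element on the opposite strand from -69 to -59. Both lie inside the GENCODE gene intervals, which begin at starts farther upstream. The HSPA5 stretch lies at chr9:125241386-125241414 on the minus strand, with the element in the direction of the gene from -66 to -48. In HSP90B1 the far copy, at chr12:103930211-103930239, spans -194 to -176 on the gene's strand, and the near copy, at chr12:103930316-103930344, spans -89 to -71 on the opposite strand. The CALR element, on the opposite strand, spans -225 to -207 within chr19:12938379-12938407. A match describes these letters only, and the windows of CRELD1, MANF, NUCB2, SDF4, CALU, RCN1 and RCN2 held neither set of letters. CRELD2 shares its upstream region with ALG12, a mannosyltransferase gene of N-glycan assembly that runs the other way, and the canonical starts of the pair are 196 bases apart. ALG12 had 146 normalized counts on average in control and 168 in tunicamycin-treated cells, with a log2 fold change of 0.19 and a standard error (SE) of 0.13 (adjusted p = 0.253 in edgeR's quasi-likelihood test).

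The libraries held 4242538 to 4888292 counts in control and 2234682 to 5029864 counts in tunicamycin-treated cells, the lowest total being that of Tunicamycin replicate 5. The mitochondrial share was 22.7% to 25.2% in control and 18.3% to 28.8% in tunicamycin-treated cells. Of 10 hepatocyte markers, all tested, 7 were lower with tunicamycin, against 16.6% of all tested genes, and the other 3 were not called. Together the 10 markers took 2.28% to 2.65% of the counts in control and 1.52% to 1.82% after treatment. ALB was at 11214 ± 1761 and 11519 ± 1676 normalized counts (mean ± SD, n = 5 each). Of 11 markers of other liver cells, 10 were in the table and 3 were tested, and their sum took 0.0317% to 0.0417% and 0.0305% to 0.0475% of the counts. PTPRC, COL1A2 and DES had 0 counts in every library, CDH5 reached 24.7 normalized counts in 1 tunicamycin library, and most of the sum was LYZ. Of the 3 tested, CD68 was lower (log2 fold change -0.83, SE 0.29), beside 16.6% of all tested genes, and LYZ and ACTA2 were not called. ACTA2 had 138 ± 26.6 normalized counts in control and 106 ± 44.2 with tunicamycin. These libraries come from bulk RNA of the HepG2 line. In such data fewer cells with a marker's mRNA and less of that mRNA per cell cannot be told apart. The part of the lower hepatocyte markers in the results below was not tested.

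Of the 9 genes, 7 were called higher with tunicamycin, meaning that edgeR's quasi-likelihood test over all genes gave a Benjamini-Hochberg adjusted p below 0.05. In the same test 34.2% of all tested genes were called, 17.6% as higher and 16.6% as lower, and since the family was chosen on this comparison nothing is read from its share. None was called lower (0 by edgeR, 0 with an unadjusted p under 0.05 and 0 by DESeq2), and CALU and RCN2 were not called. The groups of 5 libraries did not overlap for the 7 genes called higher, as for 11.7% of all genes in this direction. The median log2 fold change of the 9 genes was 0.89, beside -0.0034 for all tested genes. With library size as the only scaling, 40.9% of all calls were higher, against 51.4% with the TMM scaling used here, and the same number of the 9 genes, 7, was higher. The share of all counts taken by the 9 genes together was 0.119% to 0.129% in control and 0.327% to 0.369% in tunicamycin-treated cells.

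MANF, the neurotrophic factor and BiP partner, had the largest log2 fold change of the family. In the control libraries, replicates 1 to 5, it was at 314, 578, 633, 713 and 717 normalized counts. In the tunicamycin libraries it was at 3627, 5696, 5523, 6505 and 5882. Replicate 1 was the lowest of its group in both conditions, and even the lowest tunicamycin library was several times as high as the highest control library. The means ± SD were 591 ± 165 and 5447 ± 1083, a log2 fold change of 3.20 with an SE of 0.19, or 9.22-fold. The log2 ratio within replicate pairs ran from 3.04 in replicate 5 to 3.53 in replicate 1, so that the pair with the lowest levels had the largest ratio. MANF took 6.25% to 13.2% of the normalized counts of the 9 genes in control and 26.1% to 38.8% in tunicamycin-treated cells. The gene lies on chromosome 3 (GRCh38, 51385291 to 51389397, plus strand, 4 exons in the GENCODE canonical transcript), and its exons overlap none of another gene. Its relative CDNF, the dopamine neurotrophic factor, did not pass the filter, with 0 to 4.04 normalized counts per library.

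CRELD2, a soluble ER protein that is also secreted, had 449, 425, 430.45, 395 and 386 normalized counts in control replicates 1 to 5. It had 1894, 1817, 1728, 1623 and 1804 in the tunicamycin libraries. The libraries of each group lay close together and the groups were far apart, at 417 ± 26.1 and 1773 ± 103 (log2 fold change 2.09, SE 0.08, 4.25-fold). CRELD1, a membrane protein of the ER that is linked to heart septal defects, had the fewest counts of the family in control cells. Its control values were 102, 102, 102, 88.7 and 104 normalized counts. Its tunicamycin values were 408, 539, 431, 424.5 and 428. Control replicate 4 and Tunicamycin replicate 2 stood apart from the other libraries of their groups, and the groups did not overlap. The means were 99.8 ± 6.23 and 446 ± 52.7 (log2 fold change 2.16, SE 0.11, 4.47-fold), and the pairs ran from 1.99 to 2.40.

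The ratio of CRELD2 to CRELD1 counts in 1 library was 3.72 to 4.46 in control (median 4.21) and 3.37 to 4.64 in tunicamycin-treated cells (median 4.01). These ranges overlapped, so the ratio did not differ beyond its spread between libraries. CRELD2 lies on chromosome 22 (49918167 to 49927540, plus strand, 10 exons) and CRELD1 on chromosome 3 (9933793 to 9945413, plus strand, 11 exons). The exons of CRELD1, its last exon included, overlap those of PRRT3 on the opposite strand, and whether counting used the strand is not given in the sources used here. PRRT3 itself was at 9.17 and 4.32 normalized counts on average, well below CRELD1, and its log2 fold change was -1.09. A protein-coding model on the same strand (ENSG00000288550) also overlaps the last exon of CRELD1. ALG12 overlaps CRELD2 exons on the opposite strand, but not the last exon, where 3′ end reads fall.

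NUCB2, the precursor of nesfatin-1, had 664, 755, 812, 841 and 752 normalized counts in control replicates 1 to 5. With tunicamycin it had 3640.2, 3837, 3844, 3634 and 3271. All tunicamycin libraries were close to each other and several times as high as any control library. The means were 765 ± 68.1 and 3645 ± 233 (log2 fold change 2.25, SE 0.09, 4.77-fold). NUCB1, a luminal protein of the Golgi apparatus, was at 651, 599, 510.1, 499.9 and 644 in control and at 978, 1045, 975, 1043 and 920.1 with tunicamycin. Its groups were apart as well, but by less, at 581 ± 72.1 and 992 ± 52.5 (log2 fold change 0.77, SE 0.09, 1.71-fold). Its pairs ranged from 0.51 in replicate 5 to 1.06 in replicate 4.

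The nucleobindin pair therefore shifted in its make-up. The ratio of NUCB2 to NUCB1 counts was 1.02 to 1.68 in control (median 1.26) and 3.49 to 3.94 in tunicamycin-treated cells (median 3.67), without overlap. NUCB2 made up 13.2% to 15.6% of the family's normalized counts in control and 20.7% to 26.2% after treatment, while NUCB1 made up 9.26% to 13% and then 5.82% to 7.04%. NUCB2 lies on chromosome 11 (17208153 to 17349980, plus strand, 14 exons) and NUCB1 on chromosome 19 (48900050 to 48923473, plus strand, 13 exons). Each overlaps the exons of a noncoding RNA gene on the opposite strand outside its last exon.

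**Figure D1:**
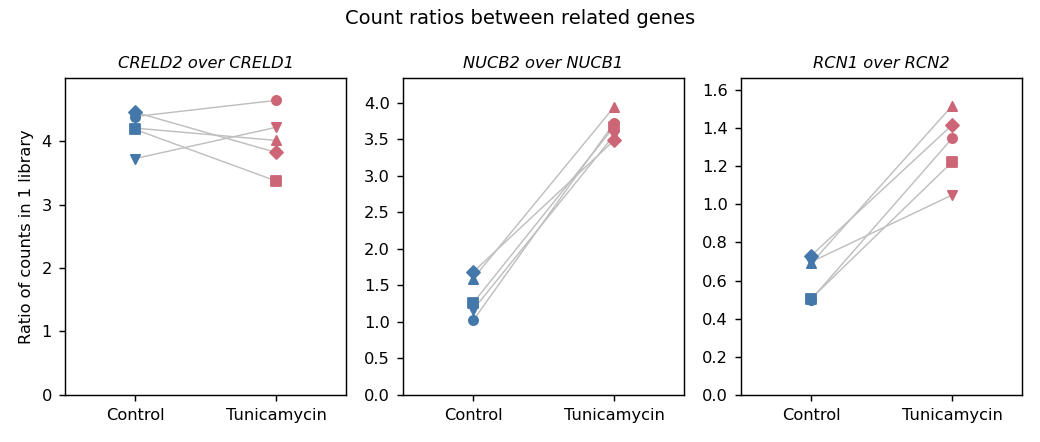
Ratio of the counts of related genes within 1 library (vertical axes from 0), with lines joining Control and Tunicamycin libraries of the same replicate number. CRELD2 over CRELD1 overlaps between conditions (medians 4.21 and 4.01), whereas NUCB2 over NUCB1 (medians 1.26 and 3.67) and RCN1 over RCN2 (medians 0.69 and 1.35) lie apart.

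The CREC genes ranged from higher to not called. RCN1, the reticulocalbin of the ER lumen, was at 237, 218, 278, 291 and 281 normalized counts in control replicates 1 to 5. It was at 425, 455, 514, 506 and 531 with tunicamycin. The groups did not overlap, at 261 ± 31.6 and 486 ± 44.2 (log2 fold change 0.89, SE 0.10, 1.86-fold), and the pairs ran from 0.79 to 1.06. SDF4, the Golgi protein Cab45 that takes part in sorting secreted cargo, had 1065, 1128, 1111, 1174 and 1324 in control and 1414, 1396, 1504, 1577 and 1536 with tunicamycin. The highest control library, replicate 5, came close to the lowest tunicamycin library without overlap. The means were 1160.2 ± 99.2 and 1485 ± 78.0 (log2 fold change 0.36, SE 0.08, 1.28-fold). Every pair was higher, by 0.21 to 0.44 on the log2 scale.

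CALU, calumenin, an ER protein that restrains the vitamin K-dependent carboxylation of clotting factors, had 1068, 964, 1006, 999 and 872 normalized counts in control. With tunicamycin it had 1186, 1119, 1024, 1099 and 924. The groups overlapped, and the values were 982 ± 71.9 and 1070.5 ± 100.1 (log2 fold change 0.13, SE 0.09). Each of the 5 pairs nonetheless had the higher value in the tunicamycin library, with log2 ratios of 0.03 to 0.22, and replicate 5 was the lowest of both groups. CALU was not called in any of the alternatives tried, including those with the replicate number as a block.

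RCN2, the ER reticulocalbin ERC-55, was the only one of the 9 genes with a lower mean after treatment. Its control libraries had 473, 432, 403, 399 and 403 normalized counts, and its tunicamycin libraries 316, 373, 339, 357 and 506. With tunicamycin, replicates 1 to 4 were below every control library, whereas replicate 5, the library with the lowest total, was above every control library. The means were 422 ± 31.7 and 378 ± 74.7, with a log2 fold change of -0.17 and an SE of 0.11, and the log2 ratio within pairs ran from -0.58 to 0.33. Without Tunicamycin replicate 5 the log2 fold change was -0.29 with an SE of 0.09, and RCN2 was called lower. With this library in the fit it was not called.

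The ratio of RCN1 to RCN2 counts was 0.50 to 0.73 in control (median 0.69) and 1.05 to 1.52 in tunicamycin-treated cells (median 1.35), without overlap. Of this pair, the gene with more counts was RCN2 in control and RCN1 with tunicamycin. CALU over RCN1 went from 3.11 to 4.51 (median 3.62) down to 1.74 to 2.79 (median 2.17). RCN1 lies on chromosome 11 (32091074 to 32105722, plus strand, 6 exons), RCN2 on chromosome 15 (76931738 to 76954393, plus strand, 7 exons), SDF4 on chromosome 1 (1216931 to 1232031, minus strand, 7 exons) and CALU on chromosome 7 (128739292 to 128773400, plus strand, 7 exons). The last exon of CALU overlaps OPN1SW on the opposite strand. That of RCN1 overlaps a noncoding RNA gene on the opposite strand and a protein-coding model on the same strand (ENSG00000285283). SDF4 and RCN2 overlap no exon of another gene. The family member RCN3 had few counts, 9.87 ± 2.55 normalized counts in control and 6.66 ± 2.29 with tunicamycin. It was not called (log2 fold change -0.62, SE 0.37, adjusted p = 0.217 in edgeR's quasi-likelihood test). Its log2 ratio was below 0 in all 5 replicate pairs, from -0.95 to -0.355.

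**Figure D2:**
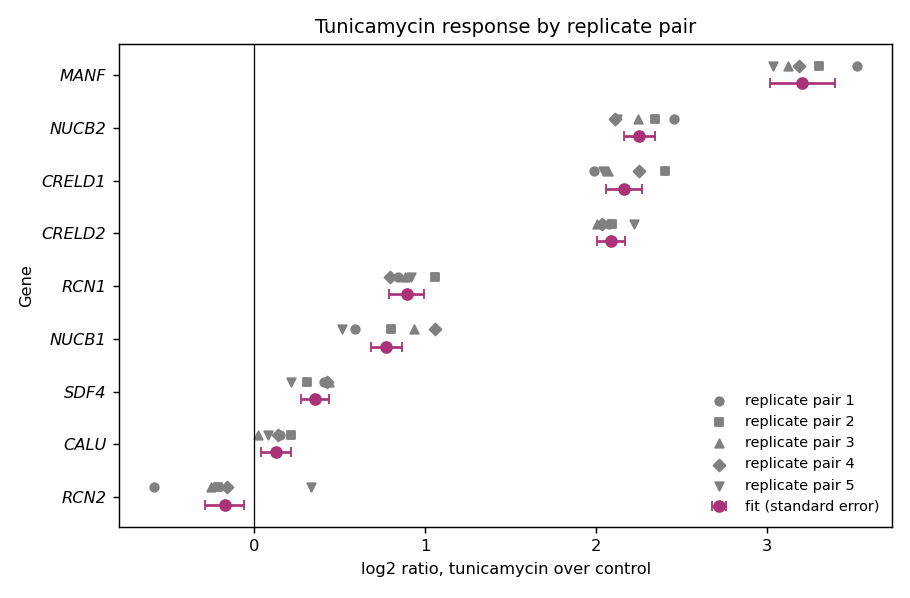
Log2 ratio of tunicamycin over control (horizontal axis) for the 9 genes, ordered by size, with a grey marker for each of the 5 replicate pairs and the fitted log2 fold change with its standard error below. MANF (3.20) lies apart from NUCB2, CRELD1 and CRELD2 (2.09 to 2.25), these from RCN1 and NUCB1 (0.77 to 0.89), and RCN2 has 1 pair, replicate 5, above 0.

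The family thus spanned a wide range of log2 fold changes, which fell at different places among all tested genes. MANF, NUCB2, CRELD1 and CRELD2 lay between the 99.1 and 99.8 percentiles, RCN1 and NUCB1 at the 92.2 and 90.2 percentiles, SDF4 at 75.4, CALU at 60.0 and RCN2 at 36.9. The order of the normalized counts changed as well. In control cells it was SDF4, CALU, NUCB2, MANF, NUCB1, RCN2, CRELD2, RCN1 and CRELD1. Neighbours in this order overlapped for SDF4 and CALU, NUCB2 and MANF, MANF and NUCB1, and RCN2 and CRELD2, and did not for the others. In tunicamycin-treated cells the order of the normalized counts was MANF, NUCB2, CRELD2, SDF4, CALU, NUCB1, RCN1, CRELD1 and RCN2. There the neighbours MANF and NUCB2, CALU and NUCB1, RCN1 and CRELD1, and CRELD1 and RCN2 overlapped. The mean normalized count of MANF moved from the 91.4 to the 99.4 percentile of all tested genes, and that of SDF4 only from 96.4 to 97.2. CRELD1 moved from the 56.1 to the 87.9 percentile.

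Genes that followed the same course over the 10 libraries were sought among 9706 genes whose mean was 20 normalized counts or more, by Pearson's r of log2 values, which holds the difference between the conditions as well as that between libraries. Nearest to MANF were PDIA6, a disulfide isomerase of the ER (r = 0.996, log2 fold change 1.60), SLC35B1, an ER nucleotide transporter (r = 0.995, 1.49), and TMEM66, now named SARAF, which damps store-operated calcium entry (r = 0.994, 1.22). Nearest to RCN2 were KATNAL1, a katanin subunit (r = 0.927, log2 fold change -0.38, SE 0.21), and ATP5J2, a subunit of the mitochondrial ATP synthase (r = 0.873, -0.21, SE 0.13). DNASE1, a secreted nuclease, came next (r = 0.864, -0.65, SE 0.21). RCN2 itself was not called, and how far these values of r rest on Tunicamycin replicate 5 was not tested.

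Chaperones of the ER lumen, KDEL receptors, calcium transport genes and cytosolic EF-hand genes were compared with the family by mRNA, from fixed lists. The lists were chosen with earlier results of these data known, so nothing is read from their shares of calls. All 5 luminal calcium-binding chaperones were higher with tunicamycin, against 17.6% of all tested genes, with a median log2 fold change of 2.43. HSPA5 went from 8445 ± 559 to 66202 ± 4410 normalized counts (log2 fold change 2.97, SE 0.08), and HSP90B1 (2.72), PDIA4 (2.43), CALR (1.41) and P4HB (0.82) were higher as well. The log2 fold change of MANF was nearest to that of HSPA5, and those of CRELD1, CRELD2 and NUCB2 lay between PDIA4 and CALR. The intervals of 1 SE of MANF and HSPA5 overlapped in this fit, which leaves the replicate pairs out. Within the pairs the log2 ratio of MANF was the higher in every replicate. In replicates 1 to 5 it was 3.53, 3.30, 3.12, 3.19 and 3.04, against 2.96, 3.01, 2.99, 3.04 and 2.85 for HSPA5. The chaperones took 0.521% to 0.554% of all counts in control and 2.50% to 2.91% after treatment, more than the 9 genes in either condition.

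The KDEL receptors return escaped ER proteins from the Golgi apparatus. Of the 3 receptors 1 was higher and 1 lower, beside 17.6% and 16.6% of all tested genes. KDELR2 had 1143 ± 139 normalized counts in control and 1559 ± 155 with tunicamycin (log2 fold change 0.45, SE 0.10, adjusted p = 0.00162 in edgeR's quasi-likelihood test). KDELR1, with the most counts of the 3, was lower at 6577 ± 341 against 7683 ± 649 (log2 fold change -0.22, SE 0.08, adjusted p = 0.0405 in the same test). This call was lost without a filter on low counts and in counts thinned to the smallest library. It was also lost without Control replicate 1, 2 or 5 or without Tunicamycin replicate 2, 4 or 5, each left out alone. KDELR3 was at 98.5 ± 5.75 and 99.9 ± 11.8 normalized counts and was not called.

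Of 18 pumps, channels and sensors that fill or empty the calcium stores, 16 were tested. Of these 5 were higher, 4 lower and 7 not called, with a median log2 fold change of 0.10. Over all tested genes 17.6% were called higher and 16.6% lower. ATP2A2, the SERCA pump that fills the ER, rose from 642 ± 162 to 2191 ± 160 normalized counts (log2 fold change 1.77, adjusted p = 1.55e-08 in edgeR's quasi-likelihood test). SARAF (1.22, adjusted p = 8.41e-08) and the plasma membrane channel ORAI2 (1.11, adjusted p = 2.07e-05) followed in the same test. Lower in it were the inositol trisphosphate receptor ITPR2 (log2 fold change -0.89, adjusted p = 4.89e-05), the channel ORAI3 (-0.74, adjusted p = 0.00717) and the ER calcium sensor STIM1 (-0.54, adjusted p = 0.000299). The Golgi pump ATP2C1, which supplies the calcium that SDF4 binds, was at 124 ± 7.44 and 128 ± 25.1 normalized counts and was not called. ATP2A3 and ATP2C2 had 0 counts in every library.

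EF-hand proteins outside the secretory pathway gave no common direction. Of 18 such genes of the cytosol or nucleus, 17 were tested, 4 were higher, 5 lower and 8 not called. Their median log2 fold change was 0.06. The shares of all tested genes were 17.6% higher and 16.6% lower. The largest increases were those of S100A11 (log2 fold change 1.93, adjusted p = 1.62e-05 in edgeR's quasi-likelihood test), S100A6 (0.68, adjusted p = 0.0319) and the calmodulin gene CALM2 (0.63, adjusted p = 0.0012). The largest decreases were those of S100A13 (-0.53, adjusted p = 0.000511), the centrin CETN3 (-0.45, adjusted p = 0.0188) and EFHD2 (-0.43, adjusted p = 0.0123), in the same test. S100A11 and S100A6 had few counts, at 22.5 ± 11.9 and 29.8 ± 10.8 normalized counts in control and 84.7 ± 13.7 and 48.7 ± 10.4 with tunicamycin. The log2 ratio of S100A11 within pairs ran from 1.16 to 3.41. The groups overlapped for S100A6, CALM2 and CETN3. The calls of S100A6 and PDCD6 were lost with library size as the only scaling and in thinned counts, which left 2 higher. Without Control replicate 2 or Tunicamycin replicate 4, 2 were higher, and without Tunicamycin replicate 4 or 5, 3 were lower.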

How the data were processed

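The authors aligned 3′ mRNA reads to hg19 with Ensembl transcript definitions in the nf-core RNA-Seq pipeline at its defaults and deposited raw counts per gene, without normalization. The aligner, counting program and strand setting behind these defaults are not named in the sources used here. The names of the 10 sample columns gave their libraries. The 9 genes and all comparison lists were chosen with earlier results of these data known.

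Genes were filtered with filterByExpr (minimum count 2, minimum total 10) and scaled by TMM. All 12733 genes were fitted in edgeR 4.0.16 (R 4.3.3) on condition alone and tested by quasi-likelihood, with Benjamini-Hochberg adjustment at 0.05. Counts were normalized to the scaled library size, times the mean of these sizes, and pair ratios used a pseudocount of 0.5. The SE is the absolute log2 fold change divided by the square root of F. Depth limits genes with few counts, and p-values measure the spread between replicate experiments.

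All members, chaperones, receptors and relatives are named, and of the calcium transport and cytosolic EF-hand lists up to 3 called genes in each direction. Values of 1 gene of the last list are not reported here. ALG12, PRRT3, ATP2C1, ATP2A3, ATP2C2, PDCD6 and the markers singled out were named after their values were seen. Libraries of the same replicate number were taken as pairs, since the experiments were on separate days. The sample titles give the numbers only. The paired deviations from the group means correlated at 0.36, 0.0197, 0.0764, 0.162 and 0.137 over 9707 genes. By this correlation the Control libraries of replicates 2 and 5 were closest to a Tunicamycin library of another number. Alternatives were DESeq2 1.42.0, its size factors, library size only, no filter, default filter minimums, the replicate block, counts thinned to the smallest library, removal of mitochondrial genes and leaving out each library. Positions are from GRCh38 with GENCODE annotation, matched by identifier, and promoters from RefSeq.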

Additional observations from a re-analysis of the deposited data

Results flagged for a closer look

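Among 108 groups of 5 libraries, 5 held a library that stood apart from the rest of its group by Dixon's test, and chance alone gives about 1 in 20 groups, or 5.4. CRELD1 had 88.7 normalized counts in Control replicate 4, where the other control libraries had 101.7 to 103.7. It had 538.8 in Tunicamycin replicate 2, where the others had 407.9 to 430.8. STIM2 had 199.7 in Control replicate 1 against 244.6 to 252.1 in the others. TMBIM6 had 4329 in Tunicamycin replicate 4 against 3767 to 3929, and SARAF had 691.7 in Tunicamycin replicate 1 against 868.2 to 915.9.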

How the results depend on the processing

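In all 19 alternatives 7 of the 9 genes were called higher. Their log2 fold changes ranged over all settings from 3.04 to 3.32 for MANF, 2.17 to 2.30 for NUCB2, 2.06 to 2.19 for CRELD1, 2.01 to 2.14 for CRELD2, 0.81 to 0.95 for RCN1, 0.69 to 0.82 for NUCB1 and 0.27 to 0.41 for SDF4. CALU (0.04 to 0.17) was not called in any of them. RCN2 (-0.29 to -0.11) was called only without Tunicamycin replicate 5, so that 0 to 1 of the 9 genes were called lower when each library was left out in turn. With the replicate block, 7 of the 9 genes were higher and 0 of 51 calls among the 9 genes and the comparison lists changed, while over all genes 2499 were higher and 2312 lower. In other alternatives up to 6 of the 51 calls changed, as without Control replicate 2. The calcium transport genes had 4 to 6 higher and 3 to 5 lower over all settings. Among cytosolic EF-hand genes 2 were higher with library size only and 2 in thinned counts, and leaving out a library gave 2 to 4 higher and 3 to 5 lower. Of the KDEL receptors 0 were lower with no filter and 0 in thinned counts, and 0 to 1 when a library was left out. Over all genes, leaving out a library gave 1956 to 2317 higher and 1827 to 2171 lower. The cause of these changes was not tested. The lowest depth, 2234682 counts, limits what can be said of genes such as CDNF and RCN3.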
